A study of Mus musculus with 14 samples.

Results

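St18, Myt1, Myt1l, Ebf1, Ebf2, Ebf3 and Ebf4 are transcription factor genes of 2 families, and their signals were read in 7 pools of neurons from the mouse medial vestibular nucleus. They were taken by symbol from the platform annotation, as 7 of the 16244 genes measured, and 13 probe sets of the table belong to them. St18, Ebf2, Ebf3 and Ebf4 had 1 probe set each, Myt1 and Ebf1 had 2, and Myt1l had 5. The signals of 5 probe sets, from St18, Ebf3 and Myt1l, reached a pool mean of 5 on the log2 scale. Only these 3 genes entered the fits, and the other 4 stayed below that level in every pool. The genes were selected on their measured levels across these same pools, so their levels and differences are given as a description without a test.

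The medial vestibular nucleus is a brainstem nucleus that receives signals of head motion and takes part in eye and head movement. Single neurons came from brainstem of C57BL/6 mice aged 24 to 32 days of 3 reporter lines, the YFP-16, the GIN and the GlyT2-13 line. The reporters of these lines use regulatory sequences of Thy1, of Gad1 and of the glycine transporter gene Slc6a5. Amplified cDNA of cells of the same type was pooled, and each pool went to 2 arrays, which are technical replicates. The pools are E1 and E2, named for excitatory cells, and I1a, I1b, I2, I3a and I3b, named for inhibitory cells. All 14 arrays carry the same labels of line, strain, age and tissue, so the share of each line in a pool is not given, nor is the number of cells. An E3 type is also named in the design but not used here. Since each type has 1 pool, the spread between its arrays is technical, and the number of pools limits every statement on cell types. A higher level in a pool cannot be told apart from more cells that express the gene.

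The Myt1 family (Myt1, Myt1l and St18, also called Myt3) consists of zinc finger proteins that bind the short core AAGTT. They act mostly as repressors through Sin3 and histone deacetylase complexes, and Myt1l, which neurons keep through life, silences genes of other lineages. Ebf proteins are helix-loop-helix factors that bind DNA as dimers at palindromes around CCCNNGGG. Ebf1 directs B cell fate, Ebf2 acts in cerebellar and adipose development, and Ebf3 acts in neuronal differentiation and migration. The zinc finger proteins Zfp423 and Zfp521 bind Ebf proteins and hinder their activity.

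Deposited values are log2 signals with 2.387 as the lowest value of the table, and 54.0% to 56.7% of probe sets per array lay within 0.1 of it. All 5 neuronal markers found in the table (Snap25, Syt1, Map2, Elavl4 and Rbfox3) reached 5, and their mean lay between 9.25 and 10.86 over the arrays. None of 10 oligodendrocyte, 8 astrocyte, 6 microglia and 6 Purkinje and granule cell markers did. St18 and Myt1 are also known from oligodendrocytes, whose marker mean lay between 2.65 and 2.79 over all arrays, with Sox10 at 4.57 to 4.86 in every pool and Mog, Mobp, Mal, Cldn11, Ermn, Olig1 and Olig2 never at 3. Ebf1 is also known from pericytes. Of 7 vascular markers, Rgs5 and Abcc9 reached 5, in the I2 pool at 7.35 and 5.84, while Cldn5, Flt1, Tek, Pdgfrb and Vtn never reached 3. The vascular mean was 3.55 and 3.66 on the I2 arrays, against 2.40 to 2.52 on all others. Of 5 oligodendrocyte precursor markers only Lhfpl3 reached 5, with 7.14 in I1a as its highest and 5.67 in I3a as its lowest pool, and their mean was 3.07 to 3.76 over the arrays.

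**Figure D1:**
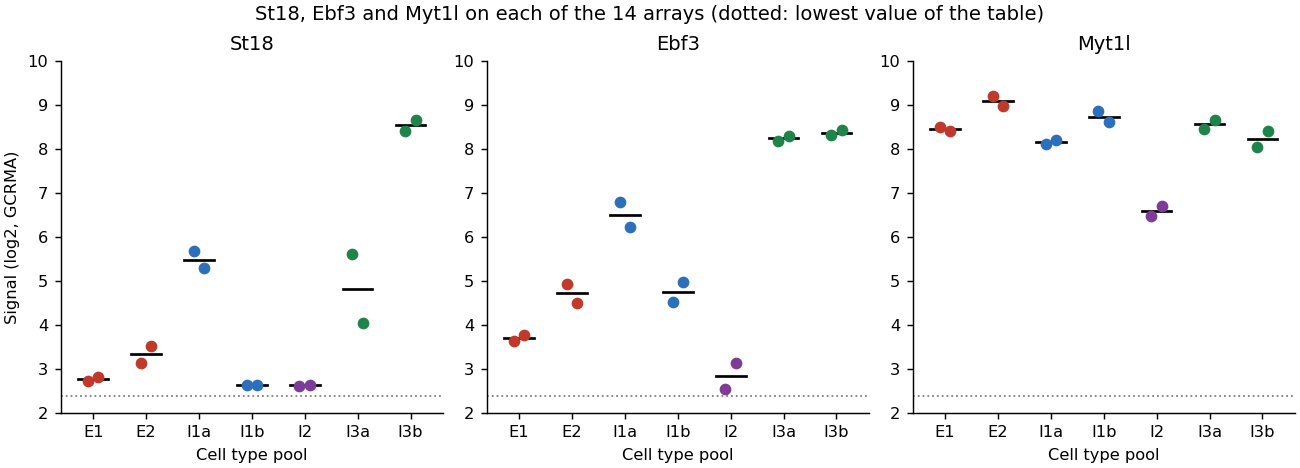
Signal (log2, GCRMA) of St18, Ebf3 and Myt1l on each of the 14 arrays, by cell type pool; points are arrays, bars the mean of the 2 arrays of a pool, and the dotted line is the lowest value of the table (2.387). St18 is at 8.41 and 8.66 in I3b, and Ebf3 is at 8.19 to 8.43 in both I3 pools. Myt1l, by its strongest probe set, is at 6.48 and 6.69 in I2, below every other array.

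St18 (Entrez 240690, chr1:6487231-6860940 on GRCm38.p6) was read by probe set 1455123_at. It encodes the third Myt1 family protein, studied in mouse in pallidal projection neurons and in islet cells. Its signal was 8.41 and 8.66 in the I3b pool. The next pools were I1a, at 5.68 and 5.29, and I3a, at 5.60 and 4.04. Arrays of I1a and I3a overlapped, and those of I3a were 1.56 log2 units apart, the widest gap between arrays of a pool for this gene. E2 was at 3.12 and 3.53 and E1 at 2.72 and 2.82. I1b and I2 lay together at the bottom, with 2.62 and 2.63 in I1b and both I2 arrays at 2.62. The order was thus I3b, then I1a and I3a without separation, then E2, E1 and, without separation, I1b and I2. The lower I3b array stood 2.73 log2 units above the highest other array. Gaps of at least 1 log2 unit above every other array were present in I3b for 15 of 4409 genes, 0.340%, and nothing is read from this, since the gene was chosen with its levels known.

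In both inhibitory families St18 differed between the a and b types, with the a type higher in I1 and the b type higher in I3. I1a averaged 5.48 ± 0.28 and I1b 2.63 ± 0.0032 (SD of 2 arrays of 1 pool each), a difference of 2.86 log2 units. I3a averaged 4.82 ± 1.10 and I3b 8.54 ± 0.18, a difference of -3.71, which was -4.49 without I3a replicate 1 and -2.93 without I3a replicate 2. Setting values under 5 to 5 left 0.48 of the difference between I1a and I1b, below 1 log2 unit, because I1b lay under 5. The mean of the oligodendrocyte precursor markers was highest in I1a, at 3.71 and 3.76, against 3.25 and 3.32 in I1b. It was 3.07 and 3.28 in I3a and 3.33 and 3.35 in I3b, where St18 was highest. The part of these markers in the St18 level was not tested. Dependence on low values limits how far a fold can be read for St18 outside I3b. E1 and E2 averaged 2.77 ± 0.068 and 3.33 ± 0.28, a difference of -0.56.

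Over whole families St18 followed no clean division. The E pools averaged 3.05 and the I pools 4.82, a difference of -1.77 (limma standard error 1.51), and the I range, 2.62 to 8.54, enclosed both E pools. The difference was -0.84 without the I3b pool and -0.86 with values under 5 set to 5. The I1 pools averaged 4.05 and the I3 pools 6.68, a difference of -2.63 (SE 1.42). I1a, at 5.48, lay above I3a, at 4.82, so the families overlapped. The difference was -0.77 without I3b, -1.20 without I1b, -4.05 without I1a and -4.48 without I3a, so each of these pools moved it by more than 1.5 times.

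**Figure D2:**
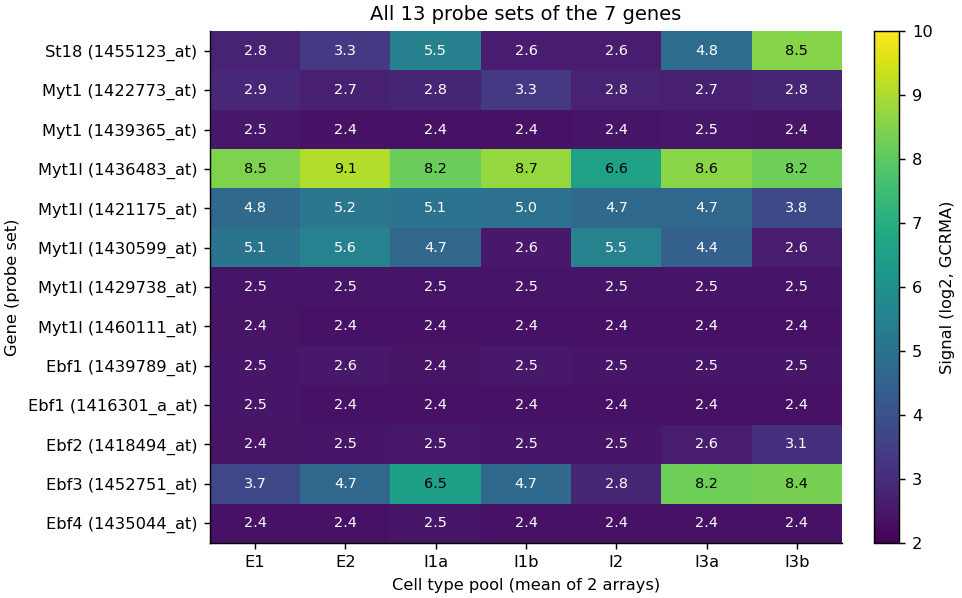
Mean log2 signal of the 2 arrays of each pool (across) for all 13 probe sets of the 7 genes (down), with colour and printed number giving the same value. St18, Ebf3 and 3 of the 5 Myt1l probe sets exceed 5 in at least 1 pool, and the others stay at or below 3.34.

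Myt1l (Entrez 17933, chr12:29527590-29923216 on GRCm38.p6) was present in every pool by its strongest probe set, 1436483_at. Its protein keeps neuronal identity by repressing other programs. The signal was 9.20 and 8.97 in E2 and 8.51 and 8.40 in E1. I1b stood at 8.85 and 8.62, I3a at 8.46 and 8.67, I3b at 8.05 and 8.40, and I1a at 8.12 and 8.20. Only I2 stood apart, at 6.48 and 6.69. E2 lay above the other pools by 0.12 at the nearest arrays. From I1b down to I1a every pool overlapped its neighbour in the order, and the step from I1a to I2 was 1.58. Both I2 arrays were at least 1.36 below every other array. A gap of at least 1 log2 unit below every other array was found in I2 for 50 of 4409 genes (1.13%). The vascular markers Rgs5 and Abcc9 were highest in the same I2 pool, and their part in the Myt1l level was not tested.

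For Myt1l the E pools averaged 8.77 and the I pools 8.06, a difference of 0.71 (SE 0.56), and the 2 groups overlapped. It was 0.35 without I2 and 0.40 without E2. The I1 pools averaged 8.45 and the I3 pools 8.40, a difference of 0.05 (SE 0.34) whose sign turned without I1b (-0.24), without I3b (-0.12) or without replicate 1 of each pool (-0.13). Differences within families were -0.63 between E1 and E2, -0.58 between I1a and I1b, and 0.34 between I3a and I3b, all under 1 log2 unit.

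The other probe sets of Myt1l did not repeat this order. Probe set 1421175_at lay between 3.51 and 5.40 over all arrays, lowest in I3b at 4.02 and 3.51, and its I2 arrays, both at 4.74, were not the lowest. Probe set 1430599_at read 5.44 and 5.62 in I2, among its highest pools, but 2.41 and 6.90 on the 2 arrays of I1a, a gap of 4.49 within 1 pool. It read 2.39 and 2.72 in I1b. The probe sets 1429738_at and 1460111_at stayed at 2.47 or below on every array. Over the 7 pools the correlation with the strongest probe set was r = 0.21 for 1421175_at and -0.27 for 1430599_at. These values describe 7 points that share the same pools and arrays. The low I2 level of Myt1l thus rests on 1 probe set of the 3 that reached 5. With all 5 probe sets averaged, Myt1l did not reach 5 in any pool.

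Myt1 (Entrez 17932, chr2:181763332-181827775 on GRCm38.p6), the founding member and a factor of neural and oligodendrocyte progenitors, did not reach 5. Its probe set 1422773_at read 3.21 and 3.46 in I1b and averaged 2.71 to 2.92 in the other pools. The other probe set, 1439365_at, lay between 2.39 and 2.64.

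Ebf3 (Entrez 13593, chr7:137193671-137322805 on GRCm38.p6) was the only Ebf gene to reach 5, by probe set 1452751_at. Its signal was 8.31 and 8.43 in I3b and 8.19 and 8.29 in I3a. I1a followed at 6.79 and 6.23. I1b, at 4.51 and 4.98, and E2, at 4.93 and 4.51, overlapped. E1 was at 3.63 and 3.76, and I2 was lowest at 2.54 and 3.13. Both I3 pools thus stood above every other array, by at least 1.40, and I2 stood below every other array, by 0.50. Both I3 pools were at least 1 log2 unit above all other arrays for 21 of 4409 genes (0.476%), and nothing is read from this, since Ebf3 was chosen with its levels known.

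The I1 pools averaged 5.63 and the I3 pools 8.31 for Ebf3, a difference of -2.68 (SE 0.64), and the families did not overlap, as was so for 40.0% of genes. The difference was -1.80 without I1b and -3.56 without I1a, and -2.60 to -2.76 when 1 I3 pool or 1 replicate of each pool was left out. Between the E pools, at 4.21, and the I pools, at 6.14, the difference was -1.93 (SE 1.46), and the I range of 2.84 to 8.37 enclosed both E pools. Within the families, I1a averaged 6.51 ± 0.40 and I1b 4.75 ± 0.33, a difference of 1.76. I3a averaged 8.24 ± 0.073 and I3b 8.37 ± 0.087, a difference of -0.13. E1 averaged 3.70 ± 0.092 and E2 4.72 ± 0.30, a difference of -1.02, which was -0.95 without E1 replicate 1, -0.81 without E2 replicate 1 and 0 with values under 5 set to 5.

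Promoters are shown for Ebf3, the Ebf gene that reached 5, for its paralogue Ebf4 and for Myt1l at the window with the most matches to the Myt1 family core. They are 300 bases each, from 250 before to 50 after a transcript start, taken from RefSeq on GRCm38.p6 and written 5′ to 3′ on the gene's strand. Capitals mark matches to AAGTT (or AACTT on the other strand) and to the Ebf core CCCNNGGG, which reads the same on both strands.  The Ebf3 window is chr7:137314396-137314695 (minus strand), the Ebf4 window chr2:130295689-130295988 (plus strand) and the Myt1l window chr12:29534972-29535271 (plus strand).
Ebf3: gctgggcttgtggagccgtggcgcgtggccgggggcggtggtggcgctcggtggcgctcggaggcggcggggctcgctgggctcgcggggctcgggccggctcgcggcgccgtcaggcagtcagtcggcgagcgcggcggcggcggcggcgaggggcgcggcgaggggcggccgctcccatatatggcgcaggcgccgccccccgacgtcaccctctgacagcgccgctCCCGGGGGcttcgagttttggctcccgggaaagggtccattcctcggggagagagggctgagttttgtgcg
Ebf4: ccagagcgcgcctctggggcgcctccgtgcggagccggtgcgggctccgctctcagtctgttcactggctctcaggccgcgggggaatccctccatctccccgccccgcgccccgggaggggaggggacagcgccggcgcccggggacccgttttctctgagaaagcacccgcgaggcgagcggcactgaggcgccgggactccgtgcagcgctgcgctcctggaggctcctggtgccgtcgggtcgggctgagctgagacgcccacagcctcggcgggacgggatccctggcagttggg
Myt1l: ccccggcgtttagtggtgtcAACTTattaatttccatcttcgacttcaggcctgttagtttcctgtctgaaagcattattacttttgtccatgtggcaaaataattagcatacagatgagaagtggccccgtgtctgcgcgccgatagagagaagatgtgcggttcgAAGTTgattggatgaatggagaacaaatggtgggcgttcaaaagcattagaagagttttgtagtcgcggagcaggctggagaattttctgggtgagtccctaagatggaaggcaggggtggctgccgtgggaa

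The Ebf3 window held 46 CpG pairs and 77.0% G and C, more CpG than 98.4% of 32851 promoters, and 1 Ebf core match, CCCGGGGG, that began 21 bases before the start. The Ebf4 window held 35 CpG pairs (more than 93.0% of promoters) and no match to either motif. The Myt1l window held 13 CpG pairs and 2 AAGTT matches. The Myt1l window at chr12:29534655-29534954 held 1 match and the remaining Myt1l windows held none. Since the printed window was picked for its matches, it cannot be set against the shares of all promoters. Over all promoters of this length, 39.3% held AAGTT on either strand and 13.7% held CCCNNGGG. The promoter table used here held 12 windows for 5 of the genes and none for St18 or Ebf2.

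The remaining Ebf genes lay near the bottom of the scale. Ebf2 (probe set 1418494_at, chr14:67233292-67430952), known from Purkinje cell subsets and brown fat, read 2.71 and 3.50 in I3b, 2.49 and 2.71 in I3a, and 2.39 to 2.51 on the other 10 arrays. Its highest array was thus of the pool where Ebf3 was highest, but the 2 I3b arrays were 0.79 apart. Ebf1 (chr11:44618100-45008096) read 2.39 to 2.61 over both probe sets. Ebf4 (chr2:130295126-130370482) read 2.39 to 2.56. At signals this close to the lowest value, a low transcript level and none cannot be told apart.

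Set against all genes, the members counted as follows, and since they were selected on these levels nothing is read from the shares. Between I1a and I1b, 2 of the 3 fitted members, St18 and Ebf3, were higher in I1a by at least 1 log2 unit with arrays apart, where 13.5% of 4409 genes passed and 3.45% did so in this direction (152 higher and 442 lower in I1a). That split depended on scaling, with 230 higher and 282 lower after quantile normalization and 235 and 262 with arrays centred on their median. The median of all genes was -0.22 as deposited. Both members lay far from it. Between I3a and I3b, St18 was lower in I3a, where 10.3% of genes passed and 7.19% in this direction (139 higher and 317 lower, or 176 and 250 after quantile normalization). Between E1 and E2, Ebf3 was lower in E1, where 7.67% passed and 3.33% in this direction. No pair comparison has a test, since each type has 1 pool. On pool means, limma called 1 gene between E and I (0.0227%), which was none of the 3. Between I1 and I3 limma called 0 genes (0% of 4409), while 496 had an unadjusted p under 0.05. Treating all 14 arrays as observations, with pool a random effect, gave 114 genes for I1 against I3. Ebf3 was among them, and nothing is read from this, since it was chosen with its levels known. That fit counts the technical arrays of a pool as separate observations and uses the same correlation within pools (0.74) for all genes.

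St18 and Ebf3 followed each other over the pools, with r = 0.85 and a rank correlation of 0.86. Leaving out 1 pool at a time gave r from 0.83 (without E1) to 0.94 (without I3a), and the 5 I pools alone gave 0.82. Both were highest in I3b, higher in I1a than in I1b, and lowest in I2, for St18 without separation from I1b. They parted in I3a, where Ebf3 was as high as in I3b and St18 was not. Myt1l gave r = 0.08 with St18 and 0.36 with Ebf3. Without I2 these were -0.65 and -0.48. All values rest on 7 pools that share arrays and normalization, and the pattern of St18 and Ebf3 was known when they were chosen together.

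Among 9 Ebf partners and E proteins in the table, 5 reached 5, where 27.1% of all genes did. These 5 varied by at least 2 log2 units over the pools, as did 19.5% of all kept genes. All 5 had negative differences between I1 and I3, with a median of -1.52, against -0.04 over all genes. The list was chosen with earlier results of these data known, so nothing is read from its counts and shares. Zfp423 reached 5 in I2 and both I3 pools and in no I1 pool, so it was kept partly through its I3 levels. Zfp521, the zinc finger binder of Ebf proteins, averaged 6.99 in the I1 pools and 8.78 in the I3 pools, a difference of -1.79 (limma adjusted p 0.295). It was lowest in I2, at 4.80. Zfp423, its close relative, differed by -1.52 (adjusted p 0.256) but was higher in I2, at 5.20, than in I1a, at 4.35. It was named after its values were seen. Tcf4, an E protein that dimerises with neuronal helix-loop-helix factors, differed by -2.74 (adjusted p 0.375), with 7.46 in I3a, 7.63 in I3b and 2.63 in I2. Tcf12, another E protein, differed by -1.24 (adjusted p 0.333) and was highest in I3b, at 8.51. Ldb2, a cofactor of LIM proteins, differed by -0.68 (adjusted p 0.785) and was highest in E1, at 5.12. These differences depended on single pools and on the choice of probe set. That of Tcf4 was -1.44 without I1b and -1.32 with its probe sets averaged, and that of Zfp521 was -0.97 with its probe sets averaged. That of Tcf12 was -0.98 without I1a and -0.87 without I3b. That of Zfp423 was -0.69 with values under 5 set to 5, and that of Ldb2 was -0.01 without I1a, -1.36 without I1b, -0.45 without I3b and -0.04 with values under 5 set to 5. By limma none of the 5 was called between I1 and I3. An unadjusted p under 0.05 was found for 4 of them, against 11.2% of all kept genes, and 3 (Zfp521, Zfp423 and Tcf4) were called with the pool as a random block, against 2.59% of all. None was called between E and I, where 1 had an unadjusted p under 0.05, against 6.19% of all, and none with the random block, against 0.136%. Within families, Tcf4 was higher in I1a than in I1b by 2.60 and lower in E1 than in E2 with a difference of -1.37, in the same directions as Ebf3, and Zfp521 was lower in E1 with a difference of -1.29. With probe sets averaged the differences between E1 and E2 were -0.80 for Tcf4 and -0.65 for Zfp521, under 1 log2 unit. Of these 5 genes, 1 was higher and 2 were lower in E1 (4.33% and 3.33% of all genes), 1 was higher and 1 lower in I1a (152 and 442 of all 4409), and none passed between I3a and I3b, where 10.3% of all did. The gene higher in E1 and the gene lower in I1a were both Ldb2. Its differences there were 0.12 and 0 with values under 5 set to 5. Ldb2 reached 5 only in E1, so the filter kept it through the pool where it counts as higher.

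**Figure D3:**
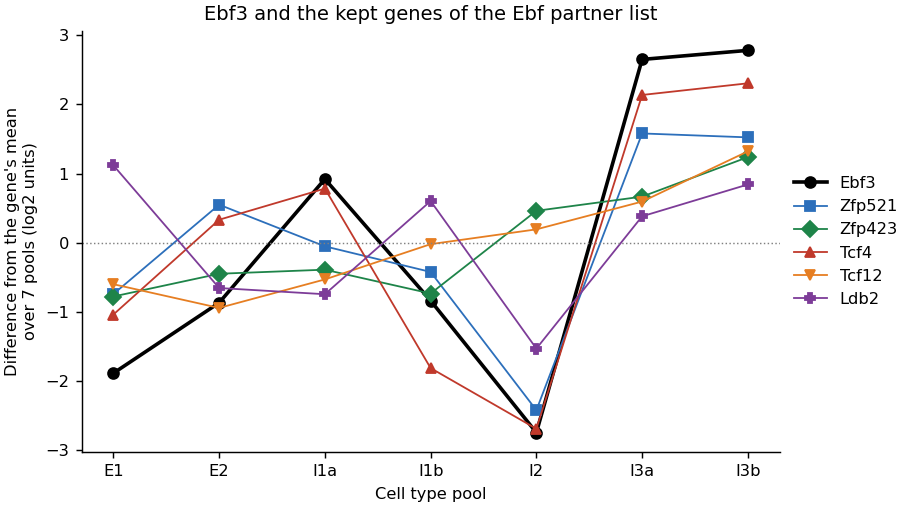
Difference of each pool mean from the gene's own mean over the 7 pools (log2 units) for Ebf3 and the 5 kept genes of the Ebf partner list; lines join the pools of 1 gene and carry no order. Ebf3, Tcf4 and Zfp521 are highest in the I3 pools and lowest in I2, while Zfp423 and Tcf12 lie above their own mean in I2.

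Of 12 factors that work beside Myt1l or Ebf in neuronal differentiation, 4 reached 5, where 27.1% of all genes did. Neurod1, a helix-loop-helix factor of neuronal differentiation, stood at 8.44 in I3b, 8.30 in I3a and 7.21 in I1a, against 3.11 in I2. It differed by -1.99 between I1 and I3 (limma adjusted p 0.376), and by -1.16 without I1b. Pou3f3, a POU-domain factor, was at 3.16 in I2 and at 6.25 to 7.38 elsewhere, and Zbtb18, a repressor of neuronal differentiation genes, at 6.75 in I2 and at 7.76 to 9.22 elsewhere. These 3 genes were lowest in I2, as were Ebf3 and the strongest Myt1l probe set. In that pool Rgs5 and Abcc9 were highest, and the part of these vascular markers in the levels was not tested. Neurog2, a proneural factor, reached 5.04 in I3a only and stood at 2.86 or below elsewhere, so the filter kept it through I3a. None of the 4 was called by limma in either test, with unadjusted p under 0.05 for 2 between I1 and I3 (11.2% of all genes) and 0 between E and I (6.19% of all). With the pool as a random block 1 (Neurod1) and 0 were called, against 2.59% and 0.136% of all. Past the fold were Neurod1, lower in E1 (3.33% of all genes) and higher in I1a (3.45%), and Neurog2, higher in I3a (3.15%), which differed by 0.26 with values under 5 set to 5.

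Of 7 corepressor genes of the Myt1 family in the table, 6 reached 5, where 27.1% of all genes did. Hdac2, a histone deacetylase, was at 8.49 to 9.58 and Kdm1a, a histone demethylase of CoREST complexes, at 6.28 to 7.71. Rcor1, the scaffold of CoREST, was at 3.15 in I3b, where St18 was highest, against 5.38 to 7.30 in the other pools. It was past 1 log2 unit with arrays apart between I3a and I3b, by 2.46, and between E1 and E2, by 1.92. Rcor3, a relative of it, was lowest in I1a at 3.91 and reached 6.08 in E1. Sin3b, the partner named for Myt1 proteins, was at 4.81 to 5.87. None of the 6 was called by limma, with 0 at an unadjusted p under 0.05 and 0 with the pool as a random block in both tests. Over all genes the last 2 shares were 11.2% and 2.59% between I1 and I3, and 6.19% and 0.136% between E and I. Limma called 0% and 0.0227% of all. Past the fold were 2 of 6 higher in E1 (4.33% of all genes), 2 lower in I1a (442 of all 4409 were lower there and 152 higher) and 1 higher in I3a (3.15% of all). With values under 5 set to 5, Rcor1 differed by 0.61 between I3a and I3b and Rcor3 by -0.31 between I1a and I1b. Kdm1a differed by -1.29 between I1a and I1b, and by -0.66 with its probe sets averaged, under 1 log2 unit. Rcor3 differed by 1.02 between E1 and E2, and by 0.80 to 0.97 in 4 settings.

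Of 17 Notch pathway genes, part of which Myt1l represses during reprogramming of mouse cells, 4 reached 5 and 13 did not. Over all genes, 27.1% reached 5. Hes1, a target of Notch and of Myt1l repression, never reached 3. Hey1, another Notch target, was at 4.43 in I3a to 5.74 in E1, and Rbpj, the DNA-binding mediator, at 5.97 in E2 to 7.19 in I1a. The ligand Jag1 was at 6.06 in I2 and at 2.85 or below elsewhere. In I2 the strongest Myt1l probe set was lowest and the vascular markers Rgs5 and Abcc9, at 7.35 and 5.84, were highest, and their part in the Jag1 level was not tested. Dll1, another ligand, was at 5.56 in I3a and at 4.36 or below elsewhere, so the filter kept it through I3a. None of the 4 was called by limma, with 0 at an unadjusted p under 0.05 and 0 with the pool as a random block in both tests. Over all genes the last 2 shares were 11.2% and 2.59% between I1 and I3, and 6.19% and 0.136% between E and I. Between I3a and I3b, Dll1 was higher by 1.55 and Hey1 lower with a difference of -1.07 (3.15% and 7.19% of all genes). None passed between E1 and E2 or between I1a and I1b, where 7.67% and 13.5% of all genes did. The difference of Dll1 was 0.56 with values under 5 set to 5 and 1.03 without I3a replicate 2. That of Hey1 was under 1 log2 unit after quantile normalization (-0.94), with arrays centred (-0.97), without I3a replicate 1 (-0.83), without I3b replicate 1 (-0.97) and with values under 5 set to 5 (-0.49). Of 34 other transcription factors of hindbrain neuron classes, Nfia, Esrrg, Rora and Maf reached 5, where 27.1% of all genes did. A further count, 19 that never reached 3, has no share of all genes beside it, so nothing is read from it. Esrrg, a nuclear receptor, differed by 1.74 between I1 and I3 (limma adjusted p 0.221), at 9.75 in I1a against 7.76 in I3a, opposite in sign to Ebf3, and Rora, another nuclear receptor, by 1.34 (adjusted p 0.329). With probe sets averaged Esrrg differed by 0.78, and with values under 5 set to 5 Rora differed by 0.72. None of the 4 was called between I1 and I3, where 2 had an unadjusted p under 0.05 (11.2% of all genes) and 1 was called with the pool as a random block (2.59% of all), or between E and I, where both counts were 0 (6.19% and 0.136% of all). Nfia was lowest in I2, at 4.32, and Maf ranged over 0.78.

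Genes whose levels ran most like each member over the 7 pools were named among 2444 kept genes with a range of at least 1 log2 unit. Arhgap6 followed St18 with r = 0.99, at 8.58 in I3b, 5.97 in I1a, 5.23 in I3a and 3.49 to 3.55 elsewhere. It stayed among the 3 most alike in 10 of 11 settings. Ptprf, a receptor tyrosine phosphatase, had r = 0.97 and Plcb4, a phospholipase C, r = 0.95, and they stayed in 4 and 2 of 11 settings. The most opposite gene was Kcnc2, a potassium channel of fast repolarisation, with r = -0.97. It was at 2.41 in I3b against 8.34 in I1b. Over the settings r ran from -0.98, without I3a, to -0.55 in the weakest.

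**Figure D4:**
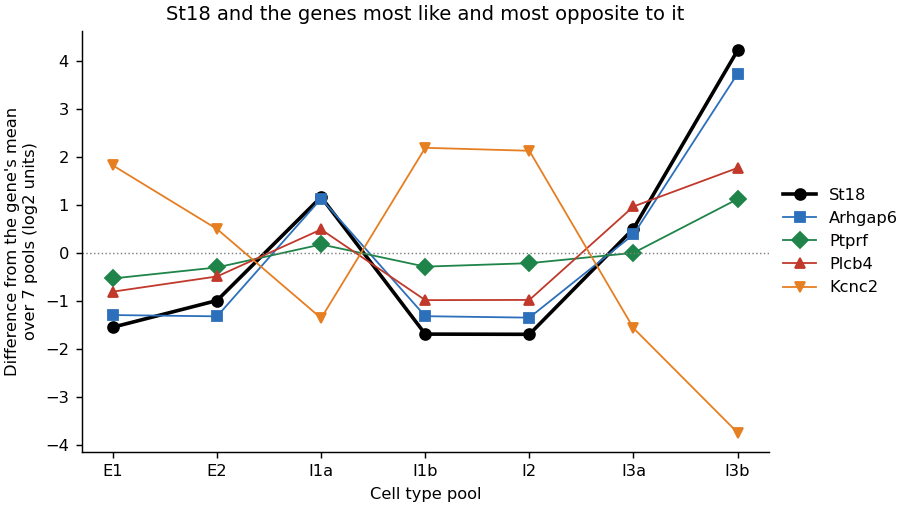
Difference of each pool mean from the gene's own mean over the 7 pools (log2 units) for St18, the 3 genes most like it (Arhgap6, Ptprf, Plcb4) and the most opposite one (Kcnc2); lines join the pools of 1 gene and carry no order. The first 4 genes are highest in I3b and lie above their own mean in I1a, where Kcnc2 lies below its own.

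Plcb4 was also most like Ebf3, with r = 0.95, followed by Irx3, an Iroquois homeobox factor, and Pkdcc, a secreted tyrosine kinase, both at r = 0.94. They stayed among the 3 most alike in 3 (Plcb4), 1 (Irx3) and 3 (Pkdcc) of 11 settings, and r of Irx3 was 0.62 with values under 5 set to 5. Plcb4 was at 11.70 in I3b, 10.90 in I3a and 10.42 in I1a, against 8.95 in I1b. The most opposite to Ebf3 was Ccng1, a cyclin of the p53 response, with r = -0.99, at 7.89 in I2 and 5.91 in I3a. For Myt1l the most alike were Rbfox1, a neuronal splicing regulator, Itgae, an integrin subunit, and Shfl, an inhibitor of ribosomal frameshifting, each at r = 0.96, and the most opposite was Angel2, a phosphatase of RNA ends, at r = -0.99. Rbfox1 was at 3.24 in I2 and at 6.76 to 9.22 elsewhere. Without I2, r was 0.80 for Rbfox1, 0.84 for Itgae and 0.74 for Shfl, the lowest over the settings, and each stayed among the 3 most alike in 2 of 11. These lists rest on 7 pools that share arrays and describe the table only.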

How the data were processed

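The authors made the deposited log2 signals with affy and GCRMA, per the submitters' processing notes, a method that corrects background, normalizes between arrays and gives 1 value per probe set. Versions are not given in the sources used here, and that the base is 2 is inferred from the range of the values and from what GCRMA writes. The table holds 30843 probe sets, of which 24034 map to 1 symbol, 477 to several, 6268 to none and 64 are controls. Symbols were updated through Entrez identifiers to RefSeq of GRCm38.p6 (23883 matched).

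A gene was represented by its probe set with the highest mean, and kept when 1 pool mean was 5 or more (4409 of 16244, 27.1%). The 2 arrays of a pool were averaged, and E against I (2 and 5 pools) and I1 against I3 (2 and 2, in a fit of all 7) were tested with limma 3.58.1 in R 4.3.3 with an intensity trend, with calls at 0.05 after Benjamini-Hochberg adjustment and 1 log2 unit. Pairs of types have 1 pool each and no test: a gene was past the fold when means differed by at least 1 log2 unit and arrays did not overlap. Each difference is the level of the group named first less that of the other. Fits were tested on simulated data.

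Members and lists were chosen with earlier results of these data known, so nothing is read from counts or shares over them. Named genes were the members, per member the 3 kept genes with the highest and the 1 with the lowest r over pool means (clone names left out), and up to 4 genes per list with the widest range. Zfp423, Sin3b and Hes1 were named after their values were seen, and the background counts over pools were added after the data were seen. Arrays have no read depth. On each array 15.1% to 16.4% of probe sets reached 5. Alternatives covered the filter, probe set choice, scaling, low values, trend, blocks and left-out arrays and pools.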

Additional observations from a re-analysis of the deposited data

Results flagged for a closer look

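In the 5 I pools, a pool mean that stood far from the other 4 for its gene (a gap to the nearest pool above 0.71 of the whole range) was found for 8 of 35 genes looked at. Chance gives about 1 in 20 for groups not chosen by their values, but these genes were members or were named for a wide range or a likeness over the same pools, so that rate does not apply and the count is a description. Myt1l was at 6.59 in I2, against 8.16 in the nearest pool (gap 0.732 of the range), by probe set 1436483_at. Its probe sets 1421175_at and 1430599_at were not lowest in I2. Itgae was also lowest in I2, at 4.59, against 5.55, and so was Pou3f3, at 3.16, against 6.63. Jag1 was highest in I2, at 6.06, against 2.85. Dll1 was highest in I3a, at 5.56, against 4.01, and Neurog2 likewise, at 5.04, against 2.86. Jag1, Dll1 and Neurog2 each reached 5 only in the pool named here, so the filter kept them through the pool where they stood out. Rcor1 was lowest in I3b, at 3.15, against 5.61, and Rcor3 was lowest in I1a, at 3.91, against 5.31. Itgae was named because it followed Myt1l over the same pools. St18 and Ebf3 had no such gap. Each pool has its own cells and 2 technical arrays, and the cause of these gaps was not tested.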

How the results depend on the processing

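The differences of St18 and Ebf3 kept their sign in every setting run, except between E1 and E2 with values under 5 set to 5, where both were 0. The count of genes called between E and I was 1, and it was 2 without the filter, with a filter at 7 or with values under 5 set to 5, and 0 without the intensity trend. With the pool as a random block over 14 arrays it was 6, and 5 with the replicate number as a replicate block as well. Leaving out a replicate or a pool gave 0 to 2, with 0 without replicate 1, E2, I1a, I2, I3a or I3b and 2 without E1. Between I1 and I3 the count was 0, and it was 1 without the filter or the trend, 2 with values under 5 set to 5, 114 with the pool as a random block and 104 with the replicate block added. Leaving out a replicate or a pool gave 0 to 0. Genes past the fold numbered 338 between E1 and E2, 594 between I1a and I1b and 456 between I3a and I3b. A filter at 7 gave 193, 308 and 219, means of probe sets 195, 317 and 257, and values under 5 set to 5 gave 219, 365 and 261, fewer partly because fewer genes were kept or could differ. Requiring 1 log2 unit within both replicate numbers (a replicate block) gave 227, 395 and 316. Leaving out 1 array gave 362 to 414, 581 to 691 and 456 to 533. The numbers are technical: over 21 pairs of pools the differences between arrays 1 and 2 correlated at -0.12 to 0.21, with 4 over 0.1, so they were not taken to pair arrays. St18 and Ebf3 kept their fold under the replicate block, except Ebf3 between E1 and E2. What limits these data is 1 pool per type and signals near 2.387, where Myt1, Ebf1, Ebf2 and Ebf4 cannot be ranked.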
